A study of Homo sapiens with 183 samples.

Results

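Desmosomes are the patches that rivet neighbouring epithelial cells together, and the mRNA of 10 of their genes was followed through every library of a study of the transcription factor KLF5 and the ATPase pair RUVBL1 and RUVBL2 in pancreatic ductal adenocarcinoma. The 10 genes were chosen by name as the core parts of the structure: the adhesive cadherins DSG2, DSG3, DSC2 and DSC3, the plaque proteins DSP, PKP1, PKP2, PKP3 and JUP, and the membrane protein PERP. All 10 were found among the 19875 gene names of the expression tables, and all 183 libraries held a value for each. The unit was TPM (transcripts per 1000000), which is a level per transcript length and a share of all transcripts of a library. In such bulk RNA, fewer cells of a kind and less RNA per cell cannot be told apart.

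The knockout libraries came from 5 pancreatic cancer lines on day 5: AsPC-1, SUIT-2, CFPAC-1, T3M-4 and BxPC-3. The cells carried Cas9 and received a lentiviral sgRNA, so each library is an infected population and not a clone, and the labels do not give the sgRNA used within a target. Controls were labelled sgRosa, after the ROSA26 locus. The labels name no experiment. The number before the point in a replicate number was read as the experiment of a line, and SUIT-2, whose labels have no such number, was counted as experiment 1. Experiment 1 held sgKLF5 in all 5 lines (6 libraries in AsPC-1, 3 in CFPAC-1, 4 in each of the others, against 4 sgRosa libraries in CFPAC-1 and SUIT-2 and 2 in each other line). In CFPAC-1 the same experiment held sgRUVBL1, sgRUVBL2, sgCDK1 and sgRpa3, and in T3M-4 and BxPC-3 it held sgRpa3. Experiment 2 held sgRUVBL1 and sgSERPINB5 in AsPC-1, and sgKLF5, sgRUVBL1, sgRUVBL2, sgCDK1 and sgRpa3 in T3M-4 and BxPC-3, and experiment 3 held the latter 5 targets in AsPC-1. A further AsPC-1 experiment held sgCHD4 with its own sgRosa libraries.

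The inhibitor libraries were collected after 24 h in CB6644, which blocks the RUVBL1/2 ATPase allosterically, or in DMSO. AsPC-1 and T3M-4 cells carried a lentiviral cDNA under drug selection: an empty vector (EV), RUVBL1 A62T or RUVBL2 dF109, with 3 CB6644 libraries and 1 DMSO library for each, so the 3 DMSO libraries of a line served together as its control. The colorectal line T84, the melanoma line A375, the small cell lung cancer line H1048 and the rhabdomyosarcoma line RH30 were treated without a cDNA, in 4 CB6644 and 4 DMSO libraries each. Differences are given as log2 fold changes on the log2(TPM + 1) scale with their standard error, and a gene was called where the Benjamini-Hochberg adjusted p of limma over all genes tested lay under 0.05. The addition of 1 TPM understates the change of genes with few TPM. The p-values measure the spread between libraries, which may be technical in part.

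As background, the desmogleins (DSG) and desmocollins (DSC) are single-pass cadherins whose outer domains bind those of the next cell. Their tails are held by JUP (plakoglobin) and the plakophilins (PKP), and these bind DSP (desmoplakin), the cable that ties the plaque to keratin filaments. DSG2 and DSC2 are made in simple as well as stratified epithelia, whereas DSG3, DSC3 and PKP1 belong to stratified epithelia such as epidermis. PKP2 is the plakophilin of heart and simple epithelia, and PKP3 is found in most epithelia. PERP is a membrane protein with several membrane spans that desmosomes of stratified epithelia need, and it is also known as a target of p53 and p63. JUP has another home in adherens junctions.

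The 4 cadherin genes share one cluster on chromosome 18 in hg38. DSC3 (chr18:30989365-31042815) and DSC2 (chr18:31058840-31102522) lie on the minus strand, and DSG3 (chr18:31447741-31478702) and DSG2 (chr18:31498177-31549008) on the plus strand. DSP (chr6:7541338-7586714, plus strand) and PERP (chr6:138088505-138107419, minus strand) are on chromosome 6, PKP1 on chromosome 1 (chr1:201283452-201332993, plus strand), PKP2 on chromosome 12 (chr12:32790745-32896798, minus strand), PKP3 on chromosome 11 (chr11:392614-404908, plus strand) and JUP on chromosome 17 (chr17:41754604-41786931, minus strand). The reference transcripts run from 2817 bases in PKP3 to 12331 bases in DSC2. DSG2 and DSG3 are adjacent genes of the same kind with similar transcript lengths (5697 and 5579 bases), yet DSG3 was called lower after every KLF5 knockout in which it could be tested and DSG2 after few, so the 250 bases before the start of each are shown, with those of PERP, the other member that was lower after most KLF5 knockouts. The sequences are those of RefSeq (GRCh38.p14), 5′ to 3′ on the strand of the gene, and capitals mark GGGNGNGG on either strand, the GC-rich letters that KLF factors are known to bind.
DSG2 (chr18:31497927-31498176, plus strand): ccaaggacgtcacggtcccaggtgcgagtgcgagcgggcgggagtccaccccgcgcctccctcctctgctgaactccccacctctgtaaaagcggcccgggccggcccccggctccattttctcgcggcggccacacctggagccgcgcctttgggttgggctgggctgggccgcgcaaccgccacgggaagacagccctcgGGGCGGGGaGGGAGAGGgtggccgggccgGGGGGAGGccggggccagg
DSG3 (chr18:31447491-31447740, plus strand): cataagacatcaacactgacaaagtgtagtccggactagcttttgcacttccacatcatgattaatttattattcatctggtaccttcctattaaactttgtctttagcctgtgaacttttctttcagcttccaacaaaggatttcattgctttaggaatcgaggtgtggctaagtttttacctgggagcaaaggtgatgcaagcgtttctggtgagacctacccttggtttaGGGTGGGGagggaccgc
PERP (chr6:138107420-138107669, minus strand): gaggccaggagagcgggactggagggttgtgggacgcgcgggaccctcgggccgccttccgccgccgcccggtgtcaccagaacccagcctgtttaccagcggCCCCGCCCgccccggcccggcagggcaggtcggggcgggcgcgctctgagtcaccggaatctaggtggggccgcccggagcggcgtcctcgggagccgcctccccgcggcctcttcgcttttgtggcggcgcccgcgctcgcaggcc

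The DSG2 promoter is rich in G and C and holds GGGNGNGG 3 times and the E-box letters CAGGTG 2 times. That of DSG3 is mostly A and T until its last bases, where the single GGGNGNGG match lies, and it holds no CAGGTG. PERP holds 1 match to GGGNGNGG and none to CAGGTG. Both motifs were searched on both strands, with matches allowed to overlap. Of the members, 8 have promoter entries in the RefSeq table, 10 entries in all because DSC2 and JUP have more than one start. GGGNGNGG was in 8 of the 10 entries, with 9 matches in DSP and none in DSC3, and CAGGTG was in 4, in DSG2, DSP, and one entry each of DSC2 and JUP. Among all 35116 promoter entries of that length, 53.39% hold GGGNGNGG and 17.49% hold CAGGTG. A match describes letters only. PKP2 and PKP3 have no entry.

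Each library summed to 1000000 TPM, so read depth is unknown, and a library had 11292 to 14024 genes at 1 TPM or more. RUVBL1, RUVBL2 and SERPINB5 mRNA fell in their own knockouts in each line tested, while KLF5 mRNA ranged from lower to higher after sgKLF5 (the log2 fold changes ran from -0.41 to 0.78). In CFPAC-1, CDK1 mRNA was lower in the libraries labelled sgRpa3 (-1.31 ± 0.092, adjusted p = 1.2e-06) and not in those labelled sgCDK1 (-0.10 ± 0.092, adjusted p = 0.678), against the labels. CHD4 mRNA was higher in the sgCHD4 libraries (0.28 ± 0.11, adjusted p = 0.0494). Libraries also differed in the balance of long against short transcripts. The index of a library was taken as its median log2 difference from the control for genes with long transcripts minus that for genes with short ones, and it was widest from its own group in T3M-4 experiment 1 sgKLF5 replicate 2 (-1.88) and SUIT-2 sgRosa replicate 1 (-0.844). The members have transcripts of very different lengths, so results that rest on either library, or on groups with a shifted balance, are given with and without them below.

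Untreated levels were compared between the lines first. The control libraries numbered 17 in AsPC-1, 9 in T3M-4, 6 in BxPC-3 and 4 in every other line. DSG2, the broadly made desmoglein, spanned 176 to 358 (median 307) TPM in AsPC-1 and 280.0 to 315 (median 289) TPM in BxPC-3, and these ranges overlapped. CFPAC-1 (196 to 258 (median 252) TPM) overlapped T84 (162 to 211 (median 179) TPM), H1048 (129 to 136 (median 131) TPM) overlapped T3M-4 (66.1 to 141 (median 109.6) TPM), and SUIT-2 (21.0 to 70.5 (median 64.5) TPM) overlapped A375 (29.8 to 31.5 (median 30.8) TPM). That last overlap came from SUIT-2 sgRosa replicate 1 at 21.0 TPM, and the other 3 SUIT-2 libraries (61.1 to 70.5 TPM) lay above all A375 libraries. RH30 lay at 0.0386 to 0.399 TPM.

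DSG3, the desmoglein of stratified epithelium, followed another order. T3M-4 (30.3 to 56.2 (median 45.6) TPM) and BxPC-3 (25.3 to 37.1 (median 33.1) TPM) were the high lines and overlapped each other. AsPC-1 (2.83 to 8.34 (median 5.14) TPM) and CFPAC-1 (2.28 to 3.49 (median 3.06) TPM) came next and also overlapped, and no line outside these 4 exceeded 0.777 TPM. SUIT-2, although a pancreatic line, had 0.124 to 0.319 (median 0.160) TPM, which overlapped RH30 (0.138 to 0.308 TPM). In percent of DSG2 and DSG3 together, DSG3 made up a median of 28.5% (23.7 to 42.6) in T3M-4, 10.2% (8.28 to 10.6) in BxPC-3 and 1.77% in AsPC-1.

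The desmocollins were split in the same manner. DSC2 was highest in T84 at 74.6 to 91.6 (median 79.2) TPM, above every library of AsPC-1 (29.0 to 46.6 (median 39.4) TPM), and only 6.99 to 15.0 (median 13.8) TPM in BxPC-3 and 6.73 to 20.7 (median 11.6) TPM in T3M-4. DSC3 was highest in BxPC-3 at 32.6 to 46.0 (median 41.8) TPM, then T3M-4 at 6.44 to 17.4 (median 12.1) TPM, and the ranges did not overlap. It came to 2.54 TPM in A375, 1.91 TPM in AsPC-1 and 1.61 TPM in CFPAC-1 by median, and to at most 0.224 TPM in any library of H1048, T84, SUIT-2 and RH30. DSC3 thus held a median of 75.5% of the desmocollin mRNA of BxPC-3, 48.9% of that of T3M-4 and 4.52% of that of AsPC-1.

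Of the plakophilins, PKP1 was a BxPC-3 transcript, with 47.1 to 72.1 (median 50.7) TPM there, 1.297 to 15.7 (median 4.69) TPM in T3M-4 and 2.999 to 3.498 (median 3.26) TPM in the muscle-type line RH30, while no library of the other 6 lines passed 1.29 TPM. PKP2 was highest in T84 (133 to 157 (median 149) TPM), with T3M-4 (50.4 TPM by median) and BxPC-3 (45.6 TPM) overlapping next, AsPC-1 at 22.1 TPM and RH30 still at 2.35 TPM. PKP3 was the leading plakophilin in all 5 pancreatic lines, from a median of 47.6 TPM in CFPAC-1 to 151 TPM in T3M-4, and T84 had 189 to 210.0 (median 192) TPM. PKP1 held a median of 23.2% of plakophilin mRNA in BxPC-3 and 2.18% in T3M-4, and PKP3 held 82.4% in AsPC-1.

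The linkers JUP and DSP were both highest in T3M-4 and BxPC-3, whose ranges overlapped. JUP spanned 325 to 669.8 (median 534) TPM and 337 to 519.5 (median 446) TPM, and was lower in CFPAC-1 (367 TPM by median), T84 (327 TPM), AsPC-1 (232 TPM), SUIT-2 (114 TPM) and H1048 (108 TPM) to A375 (4.63 TPM) and RH30 (at most 0.158 TPM). DSP spanned 195 to 291 (median 249) TPM in BxPC-3 and 106 to 266 (median 186) TPM in T3M-4, with medians of 138 TPM in T84, 134 TPM in H1048, 67.0 TPM in AsPC-1, 58.3 TPM in CFPAC-1 and 23.2 TPM in SUIT-2. PERP had the highest TPM of the 10 genes in 8 of the 9 lines, with a median of 983 TPM in AsPC-1, 795 TPM in T84, 624 TPM in T3M-4, 622 TPM in BxPC-3, 572 TPM in SUIT-2 and 225 TPM in CFPAC-1, and it was the one member above 4 TPM in RH30 (68.3 to 72.4 (median 69.8) TPM).

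**Figure D1:**
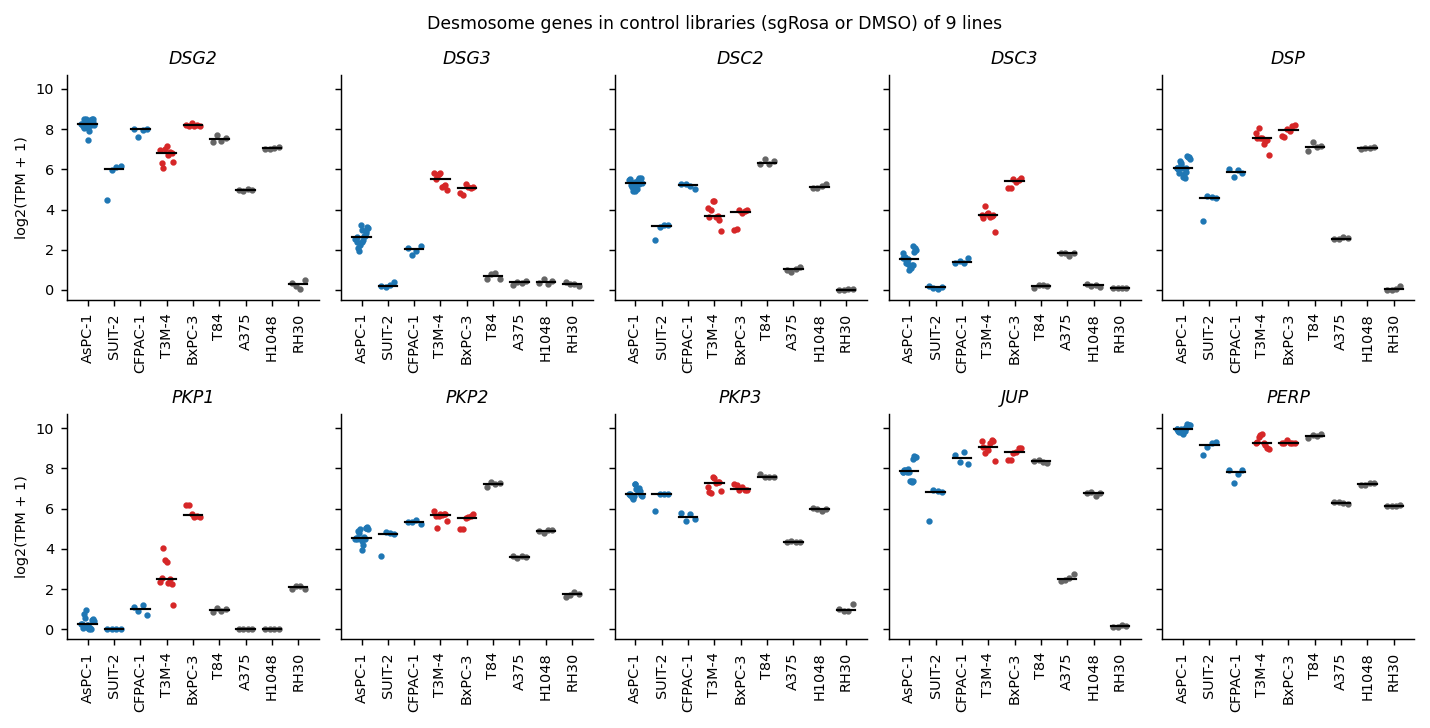
Level of each of the 10 genes, as log2(TPM + 1), in the sgRosa and DMSO libraries of the 9 lines. Each point is 1 library and each bar a line median, blue for the classical and red for the basal pancreatic lines and grey for the others. DSG3 and DSC3 stand out in T3M-4 and BxPC-3 and PKP1 in BxPC-3, PERP stays above 6 on this scale in all lines, and RH30 has most members near 0.

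These orders went with several markers of the lines, but not with every one read. KRT5 and TP63, of basal and squamous cells, were high in T3M-4 (255 to 1846 and 66.6 to 109 TPM) and BxPC-3 (2457 to 3436 and 96.2 to 111 TPM), and HNF4A, of classical pancreatic and intestinal cells, was present in AsPC-1 (40.1 to 75.4 TPM), SUIT-2 (7.45 to 22.7 TPM), CFPAC-1 (7.80 to 13.6 TPM) and T84 (66.0 to 81.4 TPM). GATA6, of the same list as HNF4A, was highest by median in the basal line BxPC-3 (38.3 TPM, against 27.0 TPM in AsPC-1). VIL1, also of that list, reached at most 0.871 TPM in SUIT-2 and 3.16 TPM in CFPAC-1. The epithelial marker EPCAM was near 0 in A375 (0.110 to 0.434 TPM) and RH30 (0 to 0.463 TPM) and at 294 to 320 TPM in H1048. The other epithelial markers did not all follow it. In A375 KRT18 was at 594 to 674 TPM and KRT8 at 60.4 to 65.9 TPM, and in H1048 CDH1 was at 2.95 to 3.22 TPM. SOX10 (231 to 238 TPM) marked A375, whose pigment genes MLANA (1.06 to 1.41 TPM) and PMEL (0.591 to 1.29 TPM) were low. MYOD1 (684 to 770.3 TPM) marked RH30 and POU2F3 (452 to 501 TPM) marked H1048, where CHAT was at most 0.337 TPM. Of the fibroblast markers, COL1A1 and DCN were under 1 TPM in AsPC-1, where LUM was at 89.97 to 137 TPM, and their sum in BxPC-3 was 4.80 to 14.0 TPM in control and 2.96 to 70.8 TPM in treated libraries. Their part in the results was not tested.

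Since T84, A375, H1048 and RH30 were fitted together, their baselines could be tested. Against A375, all 9 members tested differed in T84 (background of all genes 86.6%), 8 higher, led by JUP (5.81 ± 0.065, adjusted p = 1.92e-35), DSC2 (5.34) and DSP (4.56), while DSC3 was lower in T84 (-1.61 ± 0.055, adjusted p = 1.8e-22). Against H1048, 7 of 9 were called, all higher in T84 (all genes 89.5%), from DSG2 (0.46) to PERP (2.41), and DSP (0.063 ± 0.060 (adjusted p = 0.317)) and DSC3 (-0.033 ± 0.055 (adjusted p = 0.573)) were not. Against RH30, 8 of 9 were called (all genes 86%). JUP (8.19), DSG2 (7.24) and DSP (7.07) had the widest gaps, and PKP1 was the one member higher in RH30 (-1.13 ± 0.060, adjusted p = 1.51e-17). Most genes of any kind differed between these lines, so the counts of members are near the background. DSC3 passed the filter of this joint fit only through A375 and PKP1 only through RH30. Their higher level in those lines was thus set by the filter and is no separate result.

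Across the 9 line means of log2(TPM + 1), the linkers DSP and JUP had a Pearson r of 0.95, PKP3 and JUP 0.92 and DSG3 and DSC3 0.90, whereas DSC2 had -0.01 with DSC3 and -0.11 with PKP1. Among 12230 genes, those most like DSG2 were TES (0.98), THEM6 (0.96), CEP170B (0.96), VAMP8 (0.96) and PDLIM1 (0.95). Those most like DSG3 were CLIC3 (0.97), COX6B2 (0.96), KRT4 (0.95), SLC2A9 (0.94) and SOX15 (0.93), which include the squamous keratin KRT4 and the transcription factor SOX15. All of these values rest on 9 points that share their tables, 4 of which are lines without an epithelial pancreatic origin, and describe these lines only.

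KLF5 is a zinc finger factor of epithelial cells, and the first comparison asks which desmosome genes changed on day 5 after its knockout. DSG3 was lower in all 7 tests it entered, in classical as well as basal lines, by -0.55 in CFPAC-1 to -2.55 in T3M-4 experiment 1. PERP was lower in 5 of 8 tests, and PKP3 and DSP in 4 of 8 each. DSG2, although adjacent to DSG3, was lower in 2 of 8. Over all lines and experiments, 34 of 74 pairs of a member and a contrast were called, 32 lower and 2 higher, where 8.81% of all genes tested were called lower. The contrasts of one line share no libraries between experiments, but the members within a contrast come from the same libraries.

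Contrast by contrast, 5 of 9 members tested were called in AsPC-1 experiment 1 (all genes 25.9%), 3 of 9 in AsPC-1 experiment 3 (all genes 27.8%), 1 of 7 in SUIT-2 (all genes 3.94%) and 6 of 9 in CFPAC-1 (all genes 16.2%). In the basal lines the counts were 2 of 10 in T3M-4 experiment 1 (all genes 5.72%), 4 of 10 in experiment 2 (all genes 34.6%), 7 of 10 in BxPC-3 experiment 1 (all genes 16.2%) and 6 of 10 in experiment 2 (all genes 34.6%). AsPC-1 experiment 3 and T3M-4 experiment 2 were thus near the share of all genes. The median log2 fold change of the members tested was -0.86 against -0.023 for all genes in BxPC-3 experiment 1, -1.57 against -0.22 in T3M-4 experiment 1, -0.42 against -0.11 in CFPAC-1, -0.16 against 0.082 in AsPC-1 experiment 1 and 0.19 against 0.18 in SUIT-2. PKP1 was under the filter in AsPC-1, SUIT-2 and CFPAC-1, and DSG3 and DSC3 in SUIT-2.

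**Figure D2:**
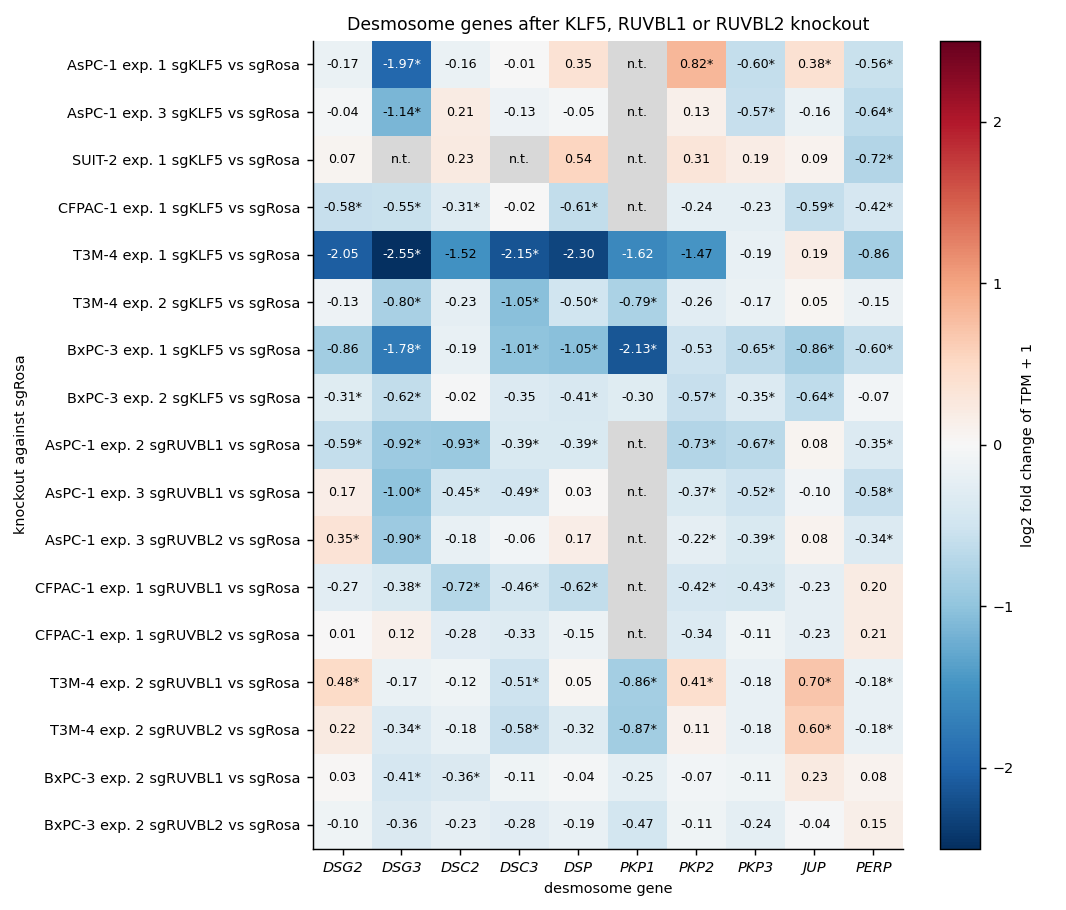
Log2 fold change, on the log2(TPM + 1) scale, of each desmosome gene (columns) in each KLF5, RUVBL1 and RUVBL2 knockout against sgRosa of the same line and experiment (rows). Blue is lower and red higher, an asterisk marks an adjusted p under 0.05 and n.t. a gene under the filter. The DSG3 column is negative in every tested row but that of CFPAC-1 sgRUVBL2, and columns such as JUP and DSG2 hold both signs.

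DSG3 in AsPC-1 experiment 1 stood at 8.34 and 6.82 TPM in the sgRosa libraries and, over the 6 sgKLF5 libraries, at 0.804 at the lowest, 1.06 at the median and 1.76 at the highest TPM. The groups did not overlap, and DSG3 fell by 1.97 ± 0.18 on the log2 scale (adjusted p = 2.43e-05). In experiment 3 of the same line the 4 sgRosa libraries had 6.73, 6.13, 7.90 and 7.59 TPM and the 4 sgKLF5 libraries 1.94, 2.81, 3.05 and 2.90 TPM. All treated libraries were again below all controls (-1.14 ± 0.14, adjusted p = 4.98e-06). CFPAC-1, which starts near that level, had 3.26, 2.28, 2.87 and 3.49 TPM after sgRosa and 1.73, 1.43 and 1.96 TPM after sgKLF5, without overlap, and DSG3 fell by 0.55 ± 0.16 on the log2 scale (adjusted p = 0.0307). This call was lost without any one of 6 of the 7 libraries, and with the replicate number as a block, median-of-ratios scaling, a fit of these groups alone or the length trend removed (-0.35 (adjusted p = 0.129)).

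The high-DSG3 lines lost more TPM. T3M-4 experiment 1 had 53.2 and 56.2 TPM in the sgRosa and 9.25, 3.11, 12.7 and 13.1 TPM in the sgKLF5 libraries, and DSG3 fell by 2.55 ± 0.49 on the log2 scale (adjusted p = 0.0246). The lowest value belongs to replicate 2, the library with the shifted length balance. Without it the change was -2.15, still called. The call was lost without sgKLF5 replicate 1 or either sgRosa library, with log2 fold changes between -2.74 and -2.15 over these fits, and also in a fit of only the groups compared. Experiment 2 of this line held 4 libraries a group, 34.2, 35.2, 36.3 and 30.3 TPM after sgRosa against 17.5, 18.9, 22.2 and 17.9 TPM after sgKLF5, all lower (-0.80 ± 0.087, adjusted p = 1.19e-06). BxPC-3 had 27.4 and 25.3 TPM against 9.10, 6.61, 6.76 and 5.75 TPM in experiment 1 (-1.78 ± 0.19, adjusted p = 0.000127), and 37.1, 33.3, 33.0 and 34.0 TPM against 19.0, 19.4, 27.6 and 22.7 TPM in experiment 2 (-0.62 ± 0.11, adjusted p = 0.000295). The groups did not overlap in any of these. The calls in both AsPC-1 experiments, T3M-4 experiment 2 and both BxPC-3 experiments survived the removal of each library in turn. SUIT-2 had 0.129, 0.124, 0.191 and 0.319 TPM in its controls and 0.168, 0.0350, 0.129 and 0.155 TPM after sgKLF5, too little to test.

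DSG2, the gene next to DSG3, was called in 2 of 8 contrasts, and no test compared it with DSG3. In AsPC-1 experiment 3 the sgRosa libraries had 357, 324, 357 and 296 TPM and the sgKLF5 libraries 284, 324, 364 and 326 TPM, overlapping (-0.040 ± 0.085, adjusted p = 0.772). T3M-4 experiment 2 had 103, 114, 109.6 and 80.7 TPM and 89.5, 95.4, 99.8 and 83.1 TPM, which also overlapped (-0.13 ± 0.12, adjusted p = 0.412). It fell in BxPC-3 experiment 2, from 315, 284, 298 and 286 TPM to 218, 239, 261 and 236 TPM with no overlap (-0.31 ± 0.096, adjusted p = 0.0176), and in CFPAC-1, from 258, 196, 252 and 253 TPM to 143, 176 and 161 TPM (-0.58 ± 0.16, adjusted p = 0.0265), a call lost without any one of 5 of 7 libraries, with the length trend removed and with no filter on low values. The BxPC-3 call was lost without sgKLF5 replicate 1. The values that missed the threshold were -0.17 ± 0.24 (adjusted p = 0.655) in AsPC-1 experiment 1, 0.074 ± 0.43 (adjusted p = 0.945) in SUIT-2, -2.05 ± 0.75 (adjusted p = 0.152) in T3M-4 experiment 1 and -0.86 ± 0.32 (adjusted p = 0.107) in BxPC-3 experiment 1. Without the libraries of shifted length balance, DSG2 was called lower in T3M-4 experiment 1 (-1.40 (adjusted p = 0.00339)) and stood at -0.33 (adjusted p = 0.666) in SUIT-2, both by limma.

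DSG3 therefore made up less of the desmoglein mRNA after sgKLF5. In T3M-4 experiment 2 its share was 25.2% ± 1.54 (SD, n = 4) after sgRosa and 17.2% ± 0.901 (SD, n = 4) after sgKLF5. In BxPC-3 experiment 1 it was 8.42% ± 0.191 (SD, n = 2) and 4.37% ± 1.26 (SD, n = 4), and in AsPC-1 experiment 3 2.09% ± 0.308 (SD, n = 4) and 0.813% ± 0.0926 (SD, n = 4). Shares were described and not tested.

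**Figure D3:**
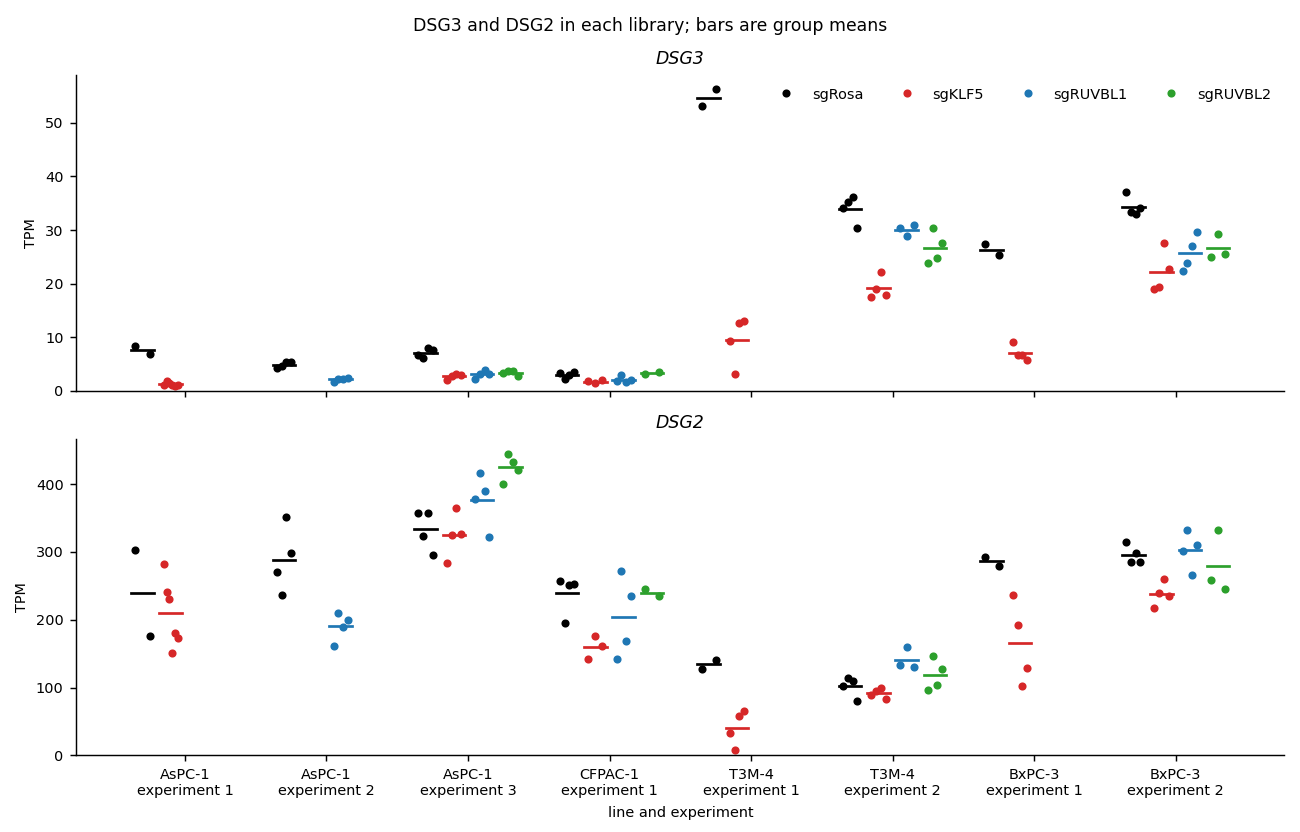
TPM of DSG3 and DSG2 in each library after sgRosa, sgKLF5, sgRUVBL1 and sgRUVBL2, by line and experiment. Points are libraries and bars are group means, on a linear axis from 0. DSG3 in the sgKLF5 libraries lies below all sgRosa libraries in all 7 experiments with sgKLF5 shown, and DSG2 overlaps its controls in several.

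Among the desmocollins, DSC3 was lower in the basal lines. T3M-4 experiment 2 had 11.4, 11.6, 12.1 and 6.44 TPM after sgRosa and 4.23, 4.11, 4.82 and 4.32 TPM after sgKLF5, without overlap (-1.05 ± 0.16, adjusted p = 5.23e-05). T3M-4 experiment 1 had 12.8 and 13.0 TPM and 2.01, 0.863, 2.84 and 3.47 TPM (-2.15 ± 0.38, adjusted p = 0.0184), and BxPC-3 experiment 1 had 32.9 and 32.6 TPM and 21.4, 18.5, 11.7 and 13.2 TPM (-1.01 ± 0.24, adjusted p = 0.0153). The calls of both experiments 1 depended on single libraries: the T3M-4 one was lost without sgKLF5 replicate 1 or either sgRosa library, and that of BxPC-3 without either sgRosa library. In BxPC-3 experiment 2 all sgKLF5 libraries (30.0, 32.02, 38.5 and 35.9 TPM) were below all sgRosa libraries (44.2, 40.9, 42.8 and 46.0 TPM), but the test gave -0.35 ± 0.14 (adjusted p = 0.0569). AsPC-1 and CFPAC-1, with under 4 TPM, gave no call (-0.015, -0.13 and -0.017).

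DSC2, the broadly made desmocollin, passed the test once, in CFPAC-1 (37.2, 37.0, 35.5 and 31.9 TPM after sgRosa and 25.3, 29.9 and 29.9 TPM after sgKLF5, -0.31 ± 0.096, adjusted p = 0.037), without overlap. That call was lost without any one of 6 of the 7 libraries. In AsPC-1 experiment 3 DSC2 had 46.3, 43.3, 46.6 and 38.9 TPM and 41.6, 54.9, 59.5 and 49.1 TPM (0.21 ± 0.10, adjusted p = 0.128), with overlap. The DSC3 share of desmocollin mRNA in T3M-4 experiment 2 was 50.8% ± 2.21 (SD, n = 4) after sgRosa and 34.7% ± 3.49 (SD, n = 4) after sgKLF5.

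PKP1, the plakophilin of stratified epithelium, had the largest single change among the members in BxPC-3. Experiment 1 had 72.1 and 70.3 TPM after sgRosa and 17.4, 15.7, 13.7 and 15.3 TPM after sgKLF5, and PKP1 fell by 2.13 ± 0.11 on the log2 scale (adjusted p = 1.88e-06). In experiment 2 of the same line the change was small and missed the threshold: 52.9, 47.3, 48.6 and 47.1 TPM against 34.9, 38.0, 45.2 and 41.0 TPM, with no overlap (-0.30 ± 0.16, adjusted p = 0.163). T3M-4 experiment 2 had 3.91, 4.69, 3.74 and 1.297 TPM and 1.49, 1.57, 1.49 and 1.16 TPM, overlapping but called lower (-0.79 ± 0.20, adjusted p = 0.00514), and experiment 1 gave -1.62 ± 0.41 (adjusted p = 0.0609) from 10.1 and 9.08 TPM to 2.62, 0.946, 3.23 and 3.72 TPM.

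PKP3, the main plakophilin by TPM, was called lower in both AsPC-1 and both BxPC-3 experiments. AsPC-1 experiment 1 had 147 and 148 TPM after sgRosa and 93.5 at the lowest, 96.6 at the median and 103 at the highest TPM over the sgKLF5 libraries (-0.60 ± 0.061, adjusted p = 5.19e-05). Experiment 3 had 114, 116, 102 and 99.0 TPM and 63.5, 73.5, 77.9 and 75.1 TPM (-0.57 ± 0.095, adjusted p = 0.000125). In neither did the groups overlap. BxPC-3 had 147 and 146 TPM against 92.9, 89.4, 92.9 and 96.4 TPM in experiment 1 (-0.65 ± 0.076, adjusted p = 0.000246) and 121, 132, 120.2 and 121 TPM against 93.9, 94.3, 102 and 98.2 TPM in experiment 2 (-0.35 ± 0.096, adjusted p = 0.00889), likewise without overlap. The values elsewhere were -0.19 ± 0.14 (adjusted p = 0.398) and -0.17 ± 0.079 (adjusted p = 0.114) in T3M-4, -0.23 ± 0.10 (adjusted p = 0.131) in CFPAC-1 and 0.19 ± 0.21 (adjusted p = 0.691) in SUIT-2.

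PKP2, the plakophilin of simple epithelia, and JUP went in different directions by line. PKP2 rose in AsPC-1 experiment 1, from 21.4 and 14.2 TPM to 28.4 at the lowest, 31.8 at the median and 35.8 at the highest TPM with no overlap (0.82 ± 0.15, adjusted p = 0.00211), whereas in experiment 3 it had 31.7, 31.6, 32.4 and 30.8 TPM and 31.9, 33.7, 38.5 and 34.9 TPM, which overlapped (0.13 ± 0.080, adjusted p = 0.248). It fell in BxPC-3 experiment 2, from 44.6, 46.5, 49.4 and 51.5 TPM to 31.9, 30.9, 33.9 and 31.5 TPM (-0.57 ± 0.085, adjusted p = 5.48e-05). JUP rose in AsPC-1 experiment 1 (232 and 223 TPM to 277 at the lowest, 299 at the median and 313 at the highest TPM, 0.38 ± 0.059, adjusted p = 0.000832), was at -0.16 in experiment 3 (adjusted p = 0.386), and fell in CFPAC-1 (411, 322, 446 and 301 TPM to 270.4, 212 and 247 TPM, -0.59 ± 0.12, adjusted p = 0.00561). In BxPC-3 JUP went from 337 and 345 TPM to 198, 180.2, 176 and 198 TPM in experiment 1 (-0.86 ± 0.10, adjusted p = 0.000276) and from 435, 458, 519.5 and 512 TPM to 266, 305, 339 and 328 TPM in experiment 2 (-0.64 ± 0.13, adjusted p = 0.000951), with no overlap in either.

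DSP, the keratin anchor, was called lower in 4 contrasts, all with weak margins. BxPC-3 experiment 1 had 199 and 195 TPM after sgRosa and 136, 109.7, 69.1 and 78.8 TPM after sgKLF5 (-1.05 ± 0.24, adjusted p = 0.0145), experiment 2 256, 242, 288 and 291 TPM and 171, 203, 231 and 208 TPM (-0.41 ± 0.14, adjusted p = 0.0285). T3M-4 experiment 2 had 153, 171, 177 and 106 TPM and 101, 116, 112 and 92.7 TPM, overlapping (-0.50 ± 0.16, adjusted p = 0.019), and CFPAC-1 64.2, 48.6, 61.1 and 55.4 TPM and 33.8, 41.5 and 36.2 TPM (-0.61 ± 0.18, adjusted p = 0.0317). The groups overlapped in T3M-4 alone of these 4. Each of the calls rested on single libraries: that of BxPC-3 experiment 1 was lost without sgRosa replicate 1 or sgRosa replicate 2, that of experiment 2 without any one of 4 of 8 libraries, that of T3M-4 without sgKLF5 replicate 4, sgRosa replicate 2 or sgRosa replicate 3 and that of CFPAC-1 without any one of 5 of 7 libraries. The CFPAC-1 call was also lost with no filter, scaling, the length trend removed or the replicate number as a block, and that of BxPC-3 experiment 2 with no filter. In AsPC-1 DSP was at 0.35 ± 0.19 (adjusted p = 0.208) in experiment 1 and -0.048 ± 0.098 (adjusted p = 0.764) in experiment 3.

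PERP was the member called lower in the one SUIT-2 test that passed. SUIT-2 had 411, 535, 609 and 627 TPM after sgRosa and 324, 315, 331 and 331 TPM after sgKLF5, without overlap, and PERP fell by 0.72 ± 0.14 on the log2 scale (adjusted p = 0.0206). The lowest control, replicate 1, is the library with the shifted length balance, and without it the change was -0.85 (adjusted p = 0.000773). The call was lost without any one of 6 other libraries or with the replicate number as a block. AsPC-1 had 932 and 836 TPM against 437 at the lowest, 619.5 at the median and 687 at the highest TPM in experiment 1 (-0.56 ± 0.14, adjusted p = 0.0157) and 1180.0, 1142, 1161 and 1132 TPM against 655, 742, 779 and 789 TPM in experiment 3 (-0.64 ± 0.072, adjusted p = 1.24e-06). BxPC-3 experiment 1 had 618 and 604 TPM and 434, 418, 389.8 and 377 TPM (-0.60 ± 0.077, adjusted p = 0.000494), and CFPAC-1 238, 155, 212 and 241 TPM and 146, 163 and 159 TPM, which overlapped (-0.42 ± 0.11, adjusted p = 0.0222). The call of AsPC-1 experiment 1 was lost without sgRosa replicate 1 or sgRosa replicate 2 and that of CFPAC-1 without any one of 5 of 7 libraries. T3M-4 (-0.86 ± 0.30 (adjusted p = 0.138) and -0.15 ± 0.066 (adjusted p = 0.0797)) and BxPC-3 experiment 2 (-0.074 ± 0.049 (adjusted p = 0.262)) gave no call.

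Where a line had 2 KLF5 experiments, the difference between their effects was tested. In BxPC-3 5 of 10 members differed (all genes 19.8%), each with the larger fall in experiment 1: PKP1 (-1.84 ± 0.14, adjusted p = 3.52e-07), DSG3 (-1.16 ± 0.20, adjusted p = 0.0009), DSC3 (-0.66), PERP (-0.52) and PKP3 (-0.31). In AsPC-1 2 of 9 did (all genes 4.6%), DSG3 (-0.83 ± 0.22, adjusted p = 0.0405) and PKP2 (0.69 ± 0.16, adjusted p = 0.0191). In T3M-4 0 of 10 did (all genes 1.67%), although the members' median difference was -1.16 and 6 members had an unadjusted p under 0.05 in limma. Without the library of the widest length gap, 7 T3M-4 members differed. The 1.67% of all genes belongs to the fit with that library, so this count is not read as a result about the members. The DSG3 difference in AsPC-1 was lost without any one of 12 of 16 libraries and that of PKP2 without sgRosa replicate 2 of experiment 1. In BxPC-3, DSC3 was lost without any one of 11 of 14 libraries and PKP3 without sgRosa replicate 1 or sgRosa replicate 2 of experiment 1. The differences of DSG3 in AsPC-1 and DSC3 in BxPC-3 were also lost with no filter or with the replicate number as a block, and that of PKP3 with scaling or the length trend removed.

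Length balance and library bear on the T3M-4 and CFPAC-1 results. In T3M-4 experiment 1 the sgKLF5 libraries had a median index of -0.56, so long transcripts such as DSP were low relative to short ones such as PKP3 across all genes. After the trend with transcript length was removed, DSG3 stood at -2.03 (adjusted p = 9.43e-05), DSC3 at -1.49 (adjusted p = 0.000299), DSP at -1.55 (adjusted p = 0.0144) and DSG2 at -1.52 (adjusted p = 0.0249), all by limma, and 8 members were called in place of 2. Leaving out replicate 2 instead also gave 8, with DSG3 at -2.15, DSC3 at -1.90 and DSP at -1.66. The share of all genes given above for this contrast belongs to the main fit, so neither count of 8 is read as a result about the members. In CFPAC-1 the median index of sgKLF5 was -0.28, and with the trend removed only JUP stayed called (-0.46 (adjusted p = 0.021)) of the 6. Of the 34 KLF5 calls, 26 held under every setting in which the member was tested, the removal of single libraries aside. The other 8 were those of DSG2, DSG3, DSC2, DSP and PERP in CFPAC-1, PERP in SUIT-2, DSG3 in T3M-4 experiment 1 and DSP in BxPC-3 experiment 2.

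**Figure D4:**
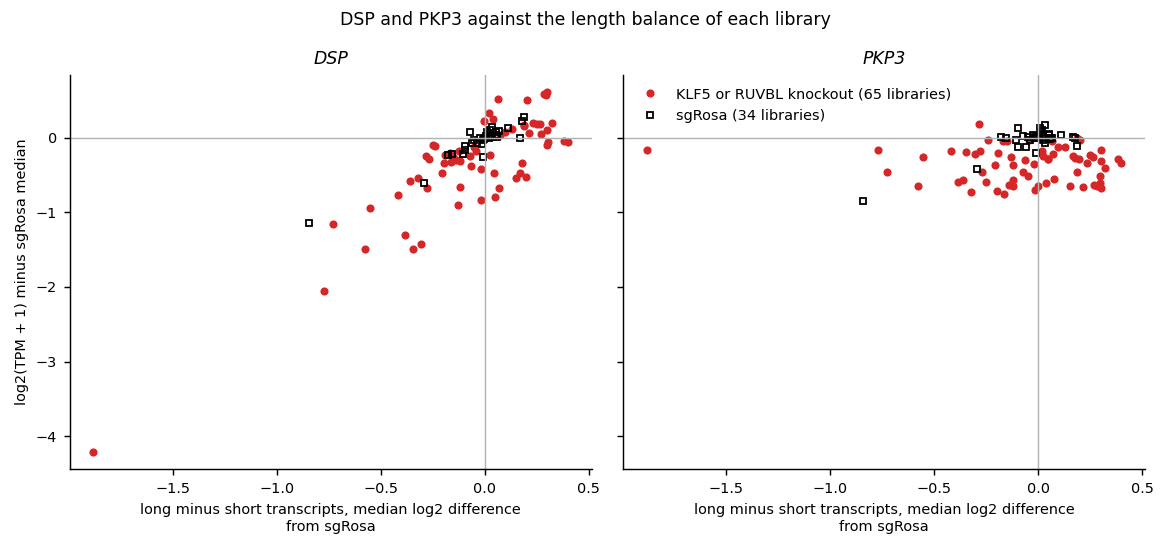
For the sgRosa (squares), KLF5 and RUVBL knockout libraries (circles), the log2(TPM + 1) of DSP (a long transcript) and PKP3 (a short one) minus the sgRosa median of the same line and experiment, plotted against the index of long minus short transcripts. T3M-4 experiment 1 sgKLF5 replicate 2 lies far to the left with a low DSP value, SUIT-2 sgRosa replicate 1 is the square farthest left, and DSP is lower where the index is lower among the controls as well.

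RUVBL1 and RUVBL2 form an AAA+ ATPase ring of chromatin remodelling and chaperone complexes, and their knockouts were set against sgRosa in 4 lines. After sgRUVBL1, DSG3 was lower in both AsPC-1 experiments, CFPAC-1 and BxPC-3, and after sgRUVBL2 in AsPC-1 and T3M-4, 6 of 9 tests. DSC3 and PERP were lower in 5 of 9, and DSC2 and PKP3 in 4 of 9. JUP was called only higher, in T3M-4 with either target. Over these contrasts 38 of 85 pairs were called, 33 lower and 5 higher, where 15.7% of all genes tested were called lower.

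In AsPC-1 experiment 2, 8 of 9 members were called after sgRUVBL1, all lower (all genes 55.8%), with a median of -0.59 against 0.018 for all genes. DSG3 had 4.22, 4.58, 5.39 and 5.37 TPM after sgRosa and 1.70, 2.25, 2.22 and 2.31 TPM after sgRUVBL1, without overlap (-0.92 ± 0.13, adjusted p = 2.19e-05). DSC2, which was not called after KLF5 knockout in this line, went from 36.9, 31.3, 43.4 and 37.5 TPM to 16.6, 19.2, 19.3 and 20.8 TPM (-0.93 ± 0.11, adjusted p = 3.86e-06). PKP3 went from 124, 124, 115 and 128 TPM to 74.1, 78.7, 74.8 and 79.6 TPM (-0.67 ± 0.070, adjusted p = 1.15e-06) and PKP2 from 19.7, 17.6, 23.2 and 21.5 TPM to 11.3, 12.5, 12.4 and 11.4 TPM (-0.73 ± 0.10, adjusted p = 1.71e-05). None of these groups overlapped. DSG2 (-0.59), DSC3 (-0.39), DSP (-0.39) and PERP (-0.35) fell as well (the DSP call was lost without sgRosa replicate 3 or sgRUVBL1 replicate 1), and JUP was the exception (0.077 ± 0.076 (adjusted p = 0.41)).

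In AsPC-1 experiment 3, 6 of 9 members were called after sgRUVBL1 (all genes 51.9%) and 5 of 9 after sgRUVBL2 (all genes 43.2%). DSG3 had 2.27, 3.04, 3.96 and 3.06 TPM after sgRUVBL1 and 3.31, 3.59, 3.67 and 2.72 TPM after sgRUVBL2, below every sgRosa library given above (-0.997 ± 0.14 and -0.90 ± 0.14, adjusted p = 1.75e-05 and 9.07e-05). PERP had 701, 683, 879.7 and 838 TPM and 931, 952, 895 and 862 TPM against 1180.0, 1142, 1161 and 1132 TPM, again without overlap (-0.58 ± 0.072 and -0.34 ± 0.072, adjusted p = 3.61e-06 and 0.000946). DSC2 had 46.3, 43.3, 46.6 and 38.9 TPM after sgRosa, 30.1, 33.6, 35.7 and 27.8 TPM after sgRUVBL1 and 38.5, 36.1, 40.5 and 39.1 TPM after sgRUVBL2, and passed the test in the former (-0.45 ± 0.10, adjusted p = 0.00118).

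PKP3 fell with both targets in that experiment (-0.52 ± 0.095 and -0.39 ± 0.095), as did PKP2 (-0.37 ± 0.080 and -0.22 ± 0.080, the latter lost without any one of 5 libraries). DSC3 fell after sgRUVBL1 (-0.49 ± 0.14). DSG2 rose after sgRUVBL2, with 357, 324, 357 and 296 TPM after sgRosa and 400.4, 444, 433 and 421 TPM (0.35 ± 0.085, adjusted p = 0.00276), a call lost with the length trend removed. The median length index of these groups was 0.25 and 0.26, against -0.17 for sgRUVBL1 in experiment 2. DSG3 and DSG2 thus had opposite signs in the same sgRUVBL2 libraries.

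In CFPAC-1, 6 of 9 members were called after sgRUVBL1 (all genes 43.8%) and 0 of 9 after sgRUVBL2 (all genes 12.1%, 2 sgRUVBL2 libraries), where limma gave 2 an unadjusted p under 0.05. DSC2 had the widest gap after sgRUVBL1, 37.2, 37.0, 35.5 and 31.9 TPM against 19.5, 23.7, 18.9 and 22.8 TPM, without overlap (-0.72 ± 0.089, adjusted p = 5.96e-05). PKP3 (-0.43 ± 0.097), PKP2 (-0.42 ± 0.10), DSC3 (-0.46 ± 0.13) and DSP (-0.62 ± 0.17) were lower too. DSG3 had 1.75, 3.02, 1.57 and 1.97 TPM, overlapping the controls (-0.38 ± 0.15, adjusted p = 0.0479), and its call was lost without any one of 6 of 8 libraries and under each of the 6 other settings tried, with log2 values down to -0.059. The median length index was -0.41 here. With the trend removed, DSC2 (-0.25) and PKP3 (-0.26) stayed called, DSG3, DSC3, DSP and PKP2 did not, and PERP was called higher (0.46 (adjusted p = 0.00598)). With scaling, PKP3 and DSC3 were lost.

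In T3M-4, 6 of 10 members were called after sgRUVBL1 (all genes 60.5%) and 5 of 10 after sgRUVBL2 (all genes 54.5%), 3 and 1 of them higher. JUP had 604, 669.8, 660.1 and 325 TPM after sgRosa, 847, 912 and 892 TPM after sgRUVBL1 and 728, 826, 864 and 883 TPM after sgRUVBL2, above all controls in both (0.70 ± 0.18 and 0.60 ± 0.17, adjusted p = 0.00328 and 0.00627). PKP1 had 1.22, 1.29 and 1.41 TPM and 0.915, 1.63, 1.2 and 1.45 TPM, against the 3.91, 4.69, 3.74 and 1.297 TPM of the controls, with overlap (-0.86 ± 0.21 and -0.87 ± 0.20, both called lower). DSC3 was lower in both (-0.51 ± 0.17 and -0.58 ± 0.16) and PERP in both (-0.18 ± 0.071 and -0.18 ± 0.066), the PERP calls being lost without any one of 5 libraries in each case and the DSC3 call of sgRUVBL1 without sgRUVBL1 replicate 2.

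DSG3 in T3M-4 had 30.3, 28.9 and 30.9 TPM after sgRUVBL1 (-0.17 ± 0.094 (adjusted p = 0.127)) and 23.8, 30.4, 24.8 and 27.7 TPM after sgRUVBL2 (-0.34 ± 0.087, adjusted p = 0.00309), both overlapping the controls. DSG2 had 134, 159 and 130.4 TPM after sgRUVBL1 and was called higher (0.48 ± 0.13, adjusted p = 0.00503), as was PKP2 (0.41 ± 0.13, adjusted p = 0.00916). Both were lost with median-of-ratios scaling or with the length trend removed. All genes shifted upward here, by a median of 0.25 after sgRUVBL1 and 0.19 after sgRUVBL2, and the length index after sgRUVBL1 was 0.30. With the trend removed, DSG3 was called lower after sgRUVBL1 (-0.50 (adjusted p = 6.35e-06)) and JUP stayed higher (0.43 (adjusted p = 0.0151)). The DSG3 share of desmoglein mRNA was 17.7% ± 2.02 (SD, n = 3) and 18.5% ± 1.21 (SD, n = 4), against 25.2% ± 1.54 (SD, n = 4) after sgRosa.

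BxPC-3 gave the fewest calls, 2 of 10 after sgRUVBL1 (all genes 16%) and 0 of 10 after sgRUVBL2 (all genes 9.76%, 4 with an unadjusted p under 0.05 in limma). DSG3 had 22.3, 23.8, 27.0 and 29.7 TPM after sgRUVBL1, below all controls (-0.41 ± 0.11, adjusted p = 0.0175), and 25.01, 29.2 and 25.6 TPM after sgRUVBL2, also below (-0.36 ± 0.12 (adjusted p = 0.0647)). DSC2 was lower after sgRUVBL1 (14.8, 13.3, 14.4 and 15.0 TPM to 9.74, 10.9, 10.8 and 12.5 TPM, -0.36 ± 0.12, adjusted p = 0.0421). The DSG3 call was lost without sgRosa replicate 1, sgRUVBL1 replicate 2 or sgRUVBL1 replicate 1, and the DSC2 call without any one of 7 of 8 libraries. Without sgRUVBL2 replicate 2, DSG3 and 5 other members of the sgRUVBL2 contrast became called. The 9.76% of all genes belongs to the fit with that library, so this rise is not read as a result about the members. Of the 38 RUVBL1 or RUVBL2 calls, 25 held under every setting in which the member was tested, the removal of single libraries aside. Beside those named above for CFPAC-1, AsPC-1 sgRUVBL2 and T3M-4, a fit of only the groups compared ended DSC3 after sgRUVBL1 and PERP with both targets in T3M-4, and the absence of a filter ended DSC2 in BxPC-3 and DSP in AsPC-1 experiment 2.

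The knockouts of RUVBL1 and KLF5 were compared directly where both were in 1 experiment. In AsPC-1, 4 of 9 members differed (all genes 58.5%). DSC2 (-0.67 ± 0.10, adjusted p = 2.06e-05) and PKP2 (-0.50 ± 0.080, adjusted p = 3.22e-05) were lower after sgRUVBL1, as was DSC3 (-0.35), DSG2 was higher (0.21), and for DSG3 the difference was 0.15 ± 0.14 (adjusted p = 0.396). In CFPAC-1, 4 of 9 differed (all genes 30.9%): PERP (0.62 ± 0.11, adjusted p = 0.000884) and JUP (0.36) were higher and DSC2 (-0.40) and DSC3 (-0.44) lower after sgRUVBL1. Most members that differed in the basal lines were higher after sgRUVBL1. T3M-4 had 6 of 10 (all genes 45.8%), namely DSG3 (0.63 ± 0.094, adjusted p = 3.5e-05), PKP2 (0.67), JUP (0.65), DSG2 (0.61), DSP (0.55) and DSC3 (0.54). BxPC-3 had 6 of 10 (all genes 44%), JUP (0.87 ± 0.13, adjusted p = 3.49e-05), PKP2 (0.49), DSP (0.36), DSG2 (0.34) and PERP (0.16) higher and DSC2 (-0.34) lower. PKP1 (-0.070 and 0.047) and PKP3 (-0.014 and 0.23) passed in neither basal line. Single libraries decided the calls of DSG2 and DSC3 in AsPC-1 (lost without any one of 6 of 8 libraries), DSC3 (without any one of 4 of 7 libraries) and JUP (without sgKLF5 replicate 2, sgKLF5 replicate 3 or sgRUVBL1 replicate 3) in CFPAC-1, DSC3 in T3M-4 (without sgRUVBL1 replicate 3 or sgRUVBL1 replicate 1) and DSC2 (without sgKLF5 replicate 3, sgKLF5 replicate 4 or sgRUVBL1 replicate 1), DSP (without any one of 5 of 8 libraries) and PERP (without sgRUVBL1 replicate 1) in BxPC-3. Other settings also ended the calls of DSG2 (no filter, scaling, the length trend removed or only the groups compared) and DSC3 (no filter or only the groups compared) in AsPC-1, DSC3 (the length trend removed or only the groups compared) and JUP (no filter) in CFPAC-1 and DSP (no filter) and PERP (scaling) in BxPC-3.

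Between sgRUVBL2 and sgRUVBL1, 0 members differed by limma in AsPC-1, CFPAC-1, T3M-4 and BxPC-3, where 3.71%, 0.0235%, 0.0226% and 0.0323% of all genes were called. An unadjusted p under 0.05 was reached by 4, 4, 2 and 0 members. In AsPC-1 the sgRUVBL2 libraries were above all sgRUVBL1 libraries for DSC2 and DSC3 (0.28 ± 0.10 (adjusted p = 0.132) and 0.42 ± 0.14 (adjusted p = 0.106)).

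CDK1, the mitotic kinase, and RPA3, a subunit of the replication protein A complex, are genes that dividing cells need and served as essential-gene controls, with 2 libraries per knockout. Of 96 pairs, 10 were called, 8 of them higher, 7 of the 10 outside CFPAC-1. Of all genes tested there, 6.46% were called higher and 3.37% lower, so the members were near the background. After sgCDK1, AsPC-1 had 2 of 9 (all genes 16.7%), PERP at 1806 and 1802 TPM, above all sgRosa libraries (0.64 ± 0.088, adjusted p = 6.41e-05), and DSP (0.46 ± 0.12, adjusted p = 0.0123). T3M-4 had 3 of 10 (all genes 16.8%), PKP1 at 8.14 and 7.10 TPM (1.04 ± 0.24, adjusted p = 0.00828), DSG3 at 42.9 and 42.5 TPM (0.32 ± 0.11, adjusted p = 0.0453) and PERP (0.32), each above all controls. BxPC-3 had 1 of 10 (all genes 5.82%), DSG3 at 21.6 and 18.8 TPM, below all controls (-0.74 ± 0.14, adjusted p = 0.00265). DSG3 thus took opposite signs in T3M-4 and BxPC-3, where the difference between lines was not tested. The T3M-4 DSG3 call was lost under 5 of 7 other settings and without any one of 5 of 6 libraries, and those of PKP1 (without sgCDK1 replicate 1 or sgCDK1 replicate 2), PERP (without sgCDK1 replicate 2), AsPC-1 DSP (without sgCDK1 replicate 2) and BxPC-3 DSG3 (without sgCDK1 replicate 2) rested on single libraries. The T3M-4 calls of PKP1 and PERP were also lost when only their own groups were fitted, and PERP with scaling or the length trend removed. CFPAC-1 libraries labelled sgCDK1 gave 0 of 9 (all genes 0%, 1 at unadjusted p under 0.05 in limma).

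After sgRpa3, T3M-4 experiment 2 had 1 of 10 (all genes 24.6%), DSC3 (0.63 ± 0.19, adjusted p = 0.0263, lost without either sgRpa3 library), and the libraries labelled sgRpa3 in CFPAC-1 had 3 of 9 (all genes 11.6%), JUP (0.65) and PERP (0.45) higher and PKP2 (-0.50) lower, each lost without either of the 2 libraries. The DSC3 call and the CFPAC-1 calls of JUP and PERP were also lost in a fit of only the groups compared. No member was called in AsPC-1 (all genes 0.654%), BxPC-3 experiment 2 (20.8%), T3M-4 experiment 1 (0%) and BxPC-3 experiment 1 (0.307%), where limma gave 2, 0, 0 and 2 members an unadjusted p under 0.05. DSG2, DSC2 and PKP3 passed in none of the CDK1 and RPA3 contrasts. PKP1 in AsPC-1, under the filter in that line, stood at 5.23 and 3.87 TPM after sgCDK1 and at most 0.439 TPM after sgRosa.

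CHD4, an ATPase of the NuRD complex, had the widest gap in PERP of any knockout. The 4 sgRosa libraries of that AsPC-1 experiment had 983, 1005, 941 and 900.4 TPM and the 4 sgCHD4 libraries 466, 424, 489.7 and 466 TPM, without overlap (-1.05 ± 0.049, adjusted p = 1.53e-08). DSG3 went from 4.74, 4.70, 5.14 and 4.14 TPM to 2.93, 2.27, 3.29 and 2.48 TPM (-0.61 ± 0.12, adjusted p = 0.00103), PKP2 from 21.2, 21.9, 22.1 and 21.6 TPM to 16.1, 11.8, 17.1 and 16.8 TPM (-0.48 ± 0.11, adjusted p = 0.00277) and JUP from 222, 224, 242 and 242 TPM to 198, 185, 194 and 187 TPM (-0.28 ± 0.045, adjusted p = 0.000268). None of these overlapped. DSC2 was higher (0.28 ± 0.092, adjusted p = 0.0262), a call lost without any one of 5 of 8 libraries or with no filter, and DSG2 (-0.067), DSC3 (-0.18), DSP (-0.20) and PKP3 (0.004) were not called. In all 5 of 9 passed (all genes 50%). SERPINB5, a serpin that was itself lower after every KLF5 knockout, gave 0 of 9 (all genes 0.0343%, 2 members with an unadjusted p under 0.05 in limma), with DSG3 at 4.72, 4.22, 5.16 and 3.27 TPM against 4.22, 4.58, 5.39 and 5.37 TPM, overlapping.

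The RUVBL1/2 inhibitor was then examined at 24 h. In AsPC-1 with the empty vector, 5 of 9 members were called, all lower (all genes 64.4%), while all genes shifted upward by a median of 0.19. DSG3 had 3.297, 2.83 and 3.69 TPM in the 3 DMSO libraries (the A62T, dF109 and EV cells in that order) and 1.35, 1.47 and 1.31 TPM in the 3 CB6644 libraries of EV cells, without overlap (-0.84 ± 0.091, adjusted p = 8.31e-06). PKP3 had 95.0, 88.6 and 99.6 TPM and 47.8, 51.7 and 51.2 TPM, likewise without overlap (-0.90 ± 0.076, adjusted p = 1.18e-06). PKP2 went from 28.7, 26.4 and 30.4 TPM to 21.8, 20.4 and 20.4 TPM (-0.43 ± 0.063, adjusted p = 8.44e-05), PERP from 921, 1002 and 907 TPM to 749.8, 689 and 686 TPM (-0.41 ± 0.051, adjusted p = 2.42e-05), and DSC2 was lower by less (-0.28 ± 0.098, adjusted p = 0.0243), a call lost without any one of 3 of 6 libraries or in a fit of only the groups compared. DSG2 (0.062 ± 0.057 (adjusted p = 0.36)), DSP (0.13 ± 0.056 (adjusted p = 0.0666)), DSC3 (-0.21 ± 0.094 (adjusted p = 0.0679)) and JUP (-0.14 ± 0.092 (adjusted p = 0.209)) were not called. With median-of-ratios scaling, which centres the libraries on the typical gene, DSG2 (-0.21), DSP (-0.14), DSC3 (-0.37) and JUP (-0.40) were lower too.

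T3M-4 with the empty vector gave 4 of 10 (all genes 34.3%), 2 lower and 2 higher. PKP3 had 136, 114 and 108 TPM in DMSO and 96.3, 81.7 and 64.5 TPM in CB6644 (-0.57 ± 0.13, adjusted p = 0.00681), and PKP2 58.2, 48.6 and 31.6 TPM and 30.9, 29.0 and 27.5 TPM (-0.61 ± 0.16, adjusted p = 0.0152). DSP was higher (220.1, 188 and 266 TPM and 389.6, 344 and 301 TPM, 0.62 ± 0.12, adjusted p = 0.00233), as was PERP (0.32 ± 0.072, adjusted p = 0.00532). None of the groups of these 4 overlapped. DSG3 had 54.4, 45.6 and 49.0 TPM and 45.3, 40.8 and 44.5 TPM, all below, but the test gave -0.18 ± 0.079 (adjusted p = 0.0926). The DMSO values stand in the order A62T, dF109 and EV, and the PKP2 level of the EV DMSO library was close to those of the EV cells in CB6644. Against that library alone, PKP2 was at -0.12 (adjusted p = 0.272), PKP3 at -0.43 (adjusted p = 0.0895), DSP at 0.37 (adjusted p = 0.0377) and PERP at 0.16 (adjusted p = 0.0396), all by limma, and PKP2 and PKP3 were no longer called. Both were also lost in a fit of only the groups compared, as was PERP, and PKP2 without the dF109 DMSO library. DSG2 (-0.14), DSC2 (0.093), DSC3 (0.41), PKP1 (0.86) and JUP (-0.28) missed the threshold. In AsPC-1, against its EV DMSO library alone, PKP2 (-0.52 (adjusted p = 0.000183)) and PKP3 (-0.97 (adjusted p = 5.18e-05)) stayed called.

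The cells with RUVBL1 A62T or RUVBL2 dF109 ask whether the response needs a wild-type target. In AsPC-1 the A62T cells gave 0 of 9 after CB6644 (all genes 12.7%, 3 members with an unadjusted p under 0.05 in limma), with DSG3 at 2.82, 2.96 and 2.65 TPM and PKP3 at 100.1, 87.5 and 99.9 TPM, both overlapping DMSO. The dF109 cells gave 3 of 9 (all genes 33.4%), DSG3 lower at 2.31, 2.52 and 2.34 TPM (-0.33 ± 0.091, adjusted p = 0.0177) and JUP (0.43 ± 0.092, adjusted p = 0.00603) and DSP (0.27 ± 0.056, adjusted p = 0.00515) higher, the DSG3 call being lost without dF109 CB6644 replicate 1, in a fit of only the groups compared, or against the dF109 DMSO library alone (-0.18 (adjusted p = 0.197)). In T3M-4 the A62T cells gave 3 of 10 (all genes 50%) and the dF109 cells 3 of 10 (all genes 37.6%), each time DSG2, DSG3 and DSC2, all higher: DSG3 was at 61.6, 63.1 and 60.1 TPM and 59.6, 58.4 and 58.2 TPM, above its DMSO libraries (0.31 ± 0.079 and 0.24 ± 0.079). There all genes shifted by a median of 0.33 and 0.29, and after median-of-ratios scaling DSG3 was at -0.075 and -0.11, with neither called, nor were DSG2 and DSC2. Against the A62T DMSO library alone, DSG2 (0.65 ± 0.17 against all 3) was at 0.15 (adjusted p = 0.331), DSG3 at 0.18 (adjusted p = 0.224) and DSC2 at 0.18 (adjusted p = 0.438), so all 3 A62T calls were lost, whereas against the dF109 DMSO library alone all 3 dF109 calls held. Over the 4 groups with a variant, 9 of 38 pairs were called, 88.9% of them higher as deposited and 11.1% higher with that scaling, which also gave 9 calls. As deposited, 30.4% of all genes tested were called higher and 3.53% lower, so all genes leaned to higher values too. Fitted alone with their DMSO libraries, these groups gave 4 calls in place of 9, and without the T3M-4 dF109 DMSO library 5. In T3M-4 the DSC2 call of A62T cells was lost without any one of 4 of 6 libraries, and the calls of dF109 cells without any one of 5 (DSG2 and DSG3) or 4 (DSC2) of 6 libraries.

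The direct comparison of the CB6644 libraries uses no DMSO library. Empty-vector against A62T cells gave 6 of 9 in AsPC-1 (all genes 51.1%) and 8 of 10 in T3M-4 (all genes 50.6%), and empty-vector against dF109 cells gave 7 of 9 (all genes 47.2%) and 6 of 10 (all genes 34.6%). Of 27 calls in 38 pairs, 23 were lower in the empty-vector cells, where 28.1% of all genes tested were called lower and 17.7% higher. In T3M-4 against A62T cells 41.4% of all genes were called lower, so the 5 of 10 members lower there were near that share. DSG3, PKP2, PKP3 and JUP were lower in all 4. In T3M-4 the single DMSO libraries already differed in the same direction for PKP2, PKP3 and JUP, and also for DSG2, DSP, PERP and PKP1. PKP2 had 31.6 TPM in the EV, 58.2 TPM in the A62T and 48.6 TPM in the dF109 DMSO library, and in CB6644 30.9, 29.0 and 27.5 TPM, 53.5, 55.2 and 53.7 TPM and 47.2, 48.2 and 46.7 TPM in the same order (-0.87 ± 0.16 and -0.69 ± 0.16 for EV against A62T and dF109 cells). JUP had 430.3, 656 and 534 TPM in DMSO. A difference between constructs before treatment and one in the response cannot be told apart there. PKP3 in AsPC-1 was at 47.8, 51.7 and 51.2 TPM in EV, 100.1, 87.5 and 99.9 TPM in A62T and 87.3, 89.6 and 75.4 TPM in dF109 cells, with EV below both (-0.92 ± 0.076 and -0.73 ± 0.076, adjusted p = 2.25e-06 and 1.55e-05). DSG3 in AsPC-1 differed by -0.68 ± 0.091 and -0.51 ± 0.091 (adjusted p = 7.78e-05 and 0.000667), and in T3M-4, at 45.3, 40.8 and 44.5 TPM in EV cells, by -0.49 ± 0.079 and -0.42 ± 0.079. All genes were lower in the T3M-4 EV libraries by a median of -0.27 and -0.24, and there the DSG3 calls were lost with scaling (-0.21 and -0.18).

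PERP and DSP split by line in that comparison. PERP was lower in EV cells in AsPC-1 (-0.27 ± 0.051 and -0.34 ± 0.051) and higher in T3M-4 against A62T (0.26 ± 0.072), and DSP was lower in AsPC-1 against dF109 (-0.15 ± 0.056) and higher in T3M-4 against both (0.40 ± 0.12 and 0.33 ± 0.12). PKP1 was higher in T3M-4 EV cells than in A62T cells (1.299 ± 0.39, adjusted p = 0.0171). DSC2 was lower in AsPC-1 against A62T (-0.39 ± 0.098), DSC3 against dF109 (-0.28 ± 0.094), and DSG2 in T3M-4 against both (-0.78 ± 0.17 and -0.72 ± 0.17). Against the DMSO library of the same construct, T3M-4 EV and A62T cells had 0.25 and 0.15 for DSG2. In that order DSP had 0.37 and 0.24, PERP 0.16 and 0.16 and PKP1 -0.22 and 0.22. The dF109 cells had 0.69 for DSG2 and 0.53 for DSP. For these genes of T3M-4, too, a difference between constructs before treatment and one in the response cannot be told apart. The DSC3 and DSP calls of AsPC-1 and the DSP, PKP3 and JUP calls of T3M-4 against dF109 were each lost without any one of 5 of 6 libraries, and those 3 of T3M-4 also with no filter. Against A62T, the calls of JUP in AsPC-1 (without any one of 4 of 6 libraries) and of DSP (without A62T CB6644 replicate 1, A62T CB6644 replicate 3 or EV CB6644 replicate 1), PKP1 (without A62T CB6644 replicate 2 or EV CB6644 replicate 1) and JUP (without A62T CB6644 replicate 1) in T3M-4 also rested on single libraries. The difference between lines was not tested.

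**Figure D5:**
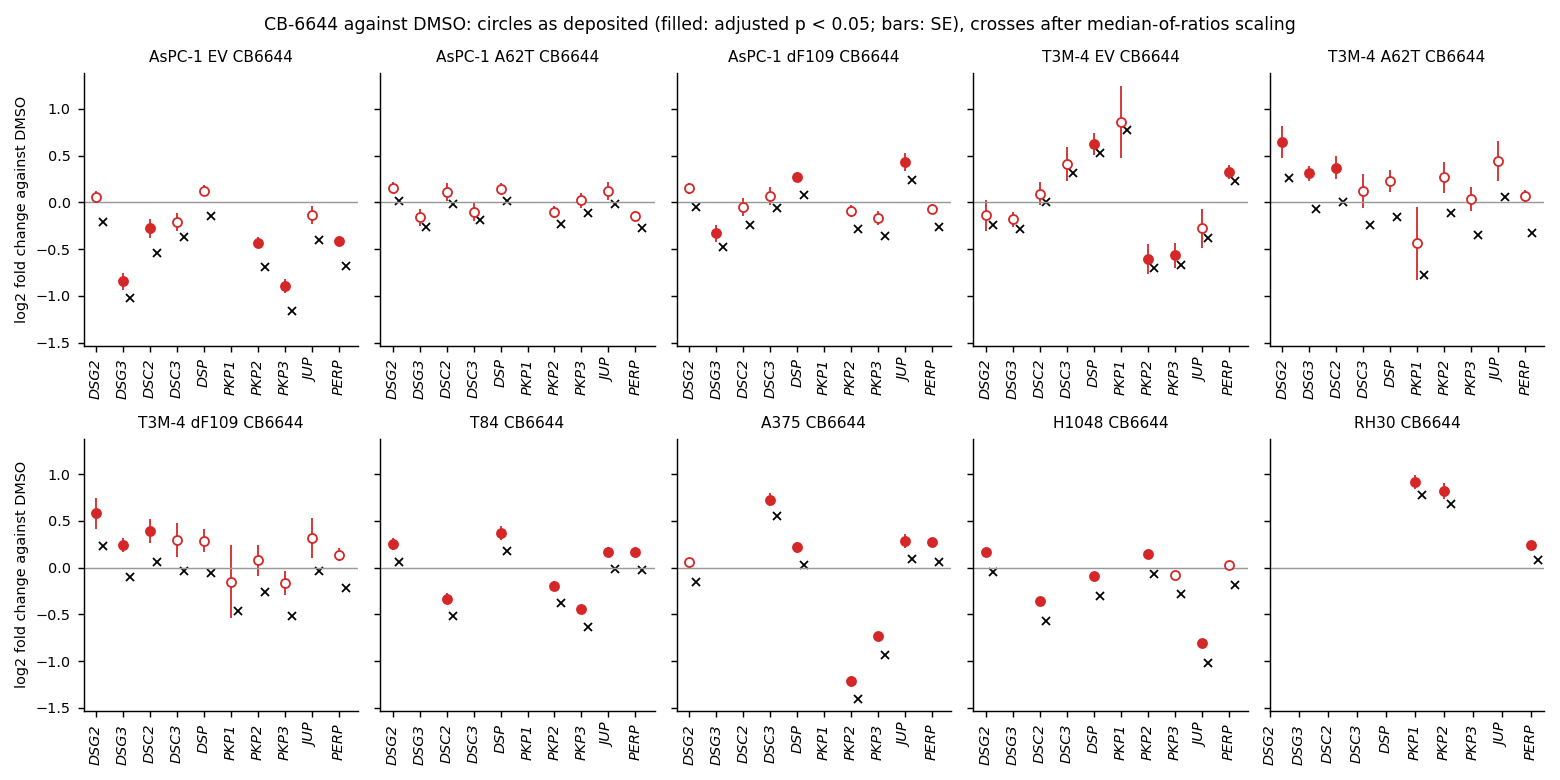
Log2 fold change of each desmosome gene after 24 h in CB6644 against DMSO, on the log2(TPM + 1) scale, by line and cDNA. Circles are the values as deposited, filled where the adjusted p was under 0.05, with bars of 1 standard error, and crosses are the values after median-of-ratios scaling. PKP3 has filled circles below 0 in AsPC-1 EV, T3M-4 EV, T84 and A375 and unfilled ones below 0 in dF109 cells and H1048. The crosses lie at lower values than the circles wherever all genes shifted upward.

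In the 4 lines of other cancers CB6644 called most genes of any kind, with 7 of 7 members tested called in T84 (all genes 71.4%), 6 of 7 in A375 (all genes 81.1%), 5 of 7 in H1048 (all genes 77.9%) and 3 of 3 in RH30 (all genes 77.7%), 21 of 24 in all and 13 of them higher. With median-of-ratios scaling 16 were called and the share of higher calls went from 61.9% to 31.2%, so the signs of small changes rest on the scale. Members under the filter were DSG3, DSC3 and PKP1 in T84 and H1048, DSG3, DSC2 and PKP1 in A375, and all but PKP1, PKP2 and PERP in RH30.

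T84, the colorectal line of these, had PKP3 at 210.0, 192, 192 and 189 TPM in DMSO and 139, 148, 151 and 136 TPM in CB6644, without overlap (-0.45 ± 0.047, adjusted p = 4.56e-07). DSC2 went from 74.6, 91.6, 75.4 and 83.0 TPM to 65.8, 62.7, 64.6 and 63.2 TPM (-0.33 ± 0.059, adjusted p = 0.000118) and PKP2 was lower by less (-0.19 ± 0.049), while DSP was higher (121, 165, 135 and 140.3 TPM and 187, 182, 184 and 169 TPM, 0.37 ± 0.071, adjusted p = 0.000222). These genes kept their sign and call after scaling. DSG2 (0.25), JUP (0.17) and PERP (0.16) were called higher as deposited and not called after it. In A375 PKP2 had the largest change, 11.4, 10.7, 11.6 and 10.9 TPM against 4.30, 4.18, 4.45 and 4.11 TPM (-1.21 ± 0.052, adjusted p = 2.09e-09), and PKP3 went from 19.4, 19.8, 19.4 and 19.2 TPM to 11.4, 10.9, 11.6 and 11.4 TPM (-0.73 ± 0.039, adjusted p = 1.23e-08). DSC3 rose there, 2.60, 2.54, 2.204 and 2.55 TPM against 4.74, 5.30, 4.53 and 4.46 TPM (0.73 ± 0.072, adjusted p = 2.25e-06). None of these overlapped.

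In H1048 the member with the widest gap was JUP, 108, 111, 98.3 and 107 TPM in DMSO against 60.2, 60.9, 64.3 and 55.0 TPM in CB6644, without overlap (-0.81 ± 0.050, adjusted p = 2.64e-08). PKP2 was called higher by 0.14 as deposited, lost without CB6644 replicate 2, CB6644 replicate 4 or DMSO replicate 2, and was at -0.066 after scaling. DSC2 was lower (32.8, 32.5, 34.7 and 37.1 TPM and 26.3, 28.0, 25.7 and 25.8 TPM, -0.36 ± 0.049, adjusted p = 2.68e-05), while PKP3 (-0.074 ± 0.042 (adjusted p = 0.127)) and PERP (0.024 ± 0.031 (adjusted p = 0.497)) did not pass. RH30 had PKP1 at 3.07, 3.45, 3.498 and 2.999 TPM in DMSO and 7.61, 7.28, 6.21 and 7.03 TPM in CB6644 (0.92 ± 0.075, adjusted p = 1.96e-07) and PKP2 at 2.00, 2.31, 2.66 and 2.39 TPM and 5.05, 4.69, 4.33 and 5.41 TPM (0.81 ± 0.085, adjusted p = 1.96e-06), both higher without overlap, and PERP was higher by less (0.25 ± 0.032, adjusted p = 1.65e-05). The response of T84 and H1048 was compared directly: 6 of 9 members differed (all genes 50.2%), JUP (0.98 ± 0.092, adjusted p = 4.21e-10), DSP (0.46) and PERP (0.14) toward higher values in T84, and PKP3 (-0.37), PKP1 (-0.35) and PKP2 (-0.34) toward lower values. The DSP difference was lost with a pseudocount of 0.1. PKP1 and DSC3 were under the filter in both lines and entered this test through other lines of the joint fit. In DMSO, PKP1 reached at most 1.11 TPM in T84 and 0.0197 TPM in H1048, so its difference is not read as a response.

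Other genes of desmosomes were read beside the 10: the cadherins DSG1, DSG4 and DSC1, the plakophilin relative PKP4, the plakins PPL and EVPL that join desmosomes to the cornified envelope, and the adhesion protein CDSN. After KLF5 knockout 3 of 30 pairs were called higher and 11 lower, against 11.8% and 8.81% of all genes. EVPL had the widest called change (AsPC-1 experiment 3, -1.32 ± 0.16, adjusted p = 3.18e-06), then PPL (BxPC-3 experiment 1, -1.2 ± 0.16, adjusted p = 0.000544). After RUVBL1 or RUVBL2 knockout 5 of 34 pairs were called higher and 4 lower (all genes 23.0% and 15.7%), PPL rising in T3M-4 (1.02 and 0.72). CHD4 knockout raised PPL (1.83 ± 0.091, adjusted p = 2.53e-08) and lowered EVPL (-0.76). CB6644 raised PPL in AsPC-1 EV (0.73), T3M-4 A62T (0.97) and A375 cells (1.47), and CDSN was lower in RH30 (-0.94). After CDK1 or RPA3 knockout 2 of 36 pairs were called higher and 0 lower (all genes 6.46% and 3.37%). With CB6644 the counts were 1 higher and 1 lower of 8 in EV cells (all genes 32.5% and 16.2%), 8 and 0 of 16 in variant cells (30.4% and 3.53%) and 6 and 2 of 10 in the other lines (50.8% and 26.3%).

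Adherens junctions, the other cadherin contacts of these cells, were read through CDH1, CDH3, the catenins CTNNA1, CTNNB1 and CTNND1, VCL, AFDN and the nectins NECTIN1, NECTIN2 and NECTIN4. After KLF5 knockout 8 of 78 pairs were called higher and 11 lower, against 11.8% and 8.81% of all genes, and for the desmosome members above 2 and 32 of 74. NECTIN1 fell in BxPC-3 experiment 1 (-1.27 ± 0.15, adjusted p = 0.000322) and CDH1 (E-cadherin) rose in AsPC-1 experiment 1 (1.01 ± 0.13, adjusted p = 0.000285), where DSG3 fell. After RUVBL1 or RUVBL2 knockout 21 of 87 pairs were called higher and 10 lower (all genes 23.0% and 15.7%), NECTIN4 rising in T3M-4 (1.25 and 1.09). After CDK1 or RPA3 knockout 13 of 98 pairs were called higher and 0 lower (all genes 6.46% and 3.37%). With CB6644, 4 were higher and 2 lower of 19 in EV cells (all genes 32.5% and 16.2%). The counts were 16 and 0 of 38 in variant cells (30.4% and 3.53%) and 21 and 5 of 34 in the other lines (50.8% and 26.3%). CDH3 was at -0.61 in AsPC-1 EV, CDH1 at 0.78 in T3M-4 dF109 and NECTIN4 at 2.11 in A375 cells. No difference between the lists was tested.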

How the data were processed

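Messenger RNA was measured in 183 libraries of 9 human cancer lines, in 8 tables. The authors made libraries from poly-A RNA, assigned reads to hg38 transcripts by kallisto's pseudo-alignment, removed transcripts of low abundance at a limit not given in the sources used here, and deposited gene values as TPM. Each table holds 19875 gene names, and every library sums to 1000000, so depth is unknown and no counting error can be given. Groups came from the labels, with the experiments read from the replicate numbers in them. The labels give every library the same batch, 1.

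The deposited TPM were taken to log2(TPM + 1). Each line and experiment had its own fit of all its libraries (limma 3.58.1 under R 4.3.3, trended empirical Bayes), which kept genes averaging 1 TPM or more there, and p-values were adjusted over all genes of a contrast by the Benjamini-Hochberg method. All adjusted p-values are from this test. The 10 genes, the lists and the tests were chosen with earlier results of these data known. All 10 members were named in every group of contrasts, and up to 2 genes of each other list.

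Alternatives were no filter, a floor of 5 TPM on the mean, a pseudocount of 0.1, median-of-ratios scaling, a fit of only the groups compared, a DMSO library of the same construct alone, the replicate number as a block, and each library left out. After the data were seen, 2 were added: the trend of log2 fold change with transcript length removed, and both libraries whose length balance lay over 0.5 from their group left out. Other assays of the study were not analysed here.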

Additional observations from a re-analysis of the deposited data

Results flagged for a closer look

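Of 250 combinations of a member and a group of 4 to 10 libraries, 21 held a library whose gap to the rest exceeded Dixon's critical value, which chance alone gives in about 1 group in 20. SUIT-2 sgRosa replicate 1 was the lowest of 4 for 4 members: DSP at 9.90 TPM, where the others had 23.0 to 24.5 TPM, PKP2 at 11.7 TPM, where the others had 25.7 to 27.4 TPM, PKP3 at 57.7 TPM, where the others had 104 to 106 TPM, and JUP at 40.9 TPM, where the others had 112 to 121 TPM. T3M-4 experiment 2 sgRosa replicate 4 was the lowest for 3: DSC3 at 6.44 TPM, where the others had 11.4 to 12.1 TPM, PKP2 at 41.2 TPM, where the others had 50.4 to 52.1 TPM, and PKP3 at 116 TPM, where the others had 151 to 158 TPM. In T3M-4 experiment 1, sgKLF5 replicate 2 had JUP at 473 TPM, where the others had 601 to 615 TPM.

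The other libraries stood apart for 1 member each. CFPAC-1 sgRosa replicate 2 had DSG2 at 196 TPM, where the others had 252 to 258 TPM, and SUIT-2 sgKLF5 replicate 4 had DSG2 at 26.2 TPM, where the others had 64.0 to 69.6 TPM. A375 CB6644 replicate 3 had DSG2 at 30.0 TPM, where the others had 32.7 to 33.1 TPM, and A375 DMSO replicate 3 had DSC3 at 2.204 TPM, where the others had 2.54 to 2.60 TPM. T84 DMSO replicate 1 had PKP3 at 210.0 TPM, where the others had 189 to 192 TPM. In AsPC-1 experiment 1, sgKLF5 replicate 6 had DSC3 at 2.55 TPM, where the others had 0.784 to 1.26 TPM. In AsPC-1 experiment 2, sgRUVBL1 replicate 1 had DSG3 at 1.70 TPM, where the others had 2.22 to 2.31 TPM, sgRosa replicate 2 had DSC3 at 1.11 TPM, where the others had 1.305 to 1.34 TPM and sgSERPINB5 replicate 4 had PKP2 at 17.2 TPM, where the others had 21.8 to 22.3 TPM. In AsPC-1 experiment 3, sgRUVBL1 replicate 3 had PKP2 at 28.4 TPM, where the others had 22.7 to 23.3 TPM and sgRUVBL2 replicate 2 had DSP at 102 TPM, where the others had 110.4 to 112 TPM. In BxPC-3 experiment 2, sgRosa replicate 2 had PKP3 at 132 TPM, where the others had 120.2 to 121 TPM and sgRUVBL1 replicate 3 had JUP at 513 TPM, where the others had 575 to 585 TPM.

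The KLF5 effect differed between the experiments of a line, by limma's test of the difference on the log2 scale, for DSG3 (-0.83) and PKP2 (0.69) in AsPC-1 (experiment 1 minus experiment 3) and for PKP1 (-1.84), DSG3 (-1.16), DSC3 (-0.66), PERP (-0.52) and PKP3 (-0.31) in BxPC-3 (experiment 1 minus experiment 2). The CB6644 effect of T84 minus that of H1048 differed for JUP (0.98), DSP (0.46), PERP (0.14), PKP3 (-0.37), PKP1 (-0.35) and PKP2 (-0.34), of which PKP1 was under the filter in both lines. The lines differ in tissue and genotype, and the experiments of a line cannot be told apart from what else changed between them.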

How the results depend on the processing

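Depth is unknown, so no limit of detection can be given. Of 210 calls, a pseudocount of 0.1 ended 4, the absence of a filter 19 and median-of-ratios scaling 35, 6 of them with the sign turned. A floor of 5 TPM ended none of the calls it still tested but left 30 untested, so that RUVBL1 or RUVBL2 knockout gave 29 calls in place of 38 and KLF5 knockout 30 in place of 34. Where they could be fitted, the length trend ended 36 of 186, a fit of only the groups compared 28 of 173, the replicate block 8 of 192 (DSG3 and DSP after sgKLF5 and DSG3 after sgRUVBL1 in CFPAC-1, PERP after sgKLF5 in SUIT-2, DSG3 after sgCDK1 in T3M-4, JUP between EV and A62T cells of AsPC-1, and the differences between KLF5 experiments of DSG3 in AsPC-1 and DSC3 in BxPC-3) and the DMSO library of the same construct alone 6 of 18. Calls after KLF5 knockout ranged from 29 to 40 with each library left out, after RUVBL1 or RUVBL2 knockout from 36 to 44, after CDK1 or RPA3 knockout from 7 to 11, after CHD4 or SERPINB5 knockout from 4 to 5, between knockouts from 18 to 21, between KLF5 experiments from 5 to 14, with CB6644 in empty-vector cells from 8 to 11, in variant cells from 5 to 12, between these from 24 to 27, in the other lines from 20 to 22, between T84 and H1048 6 each time, and at baseline from 23 to 25. The KLF5 count was lowest without CFPAC-1 sgKLF5 replicate 1 and highest without T3M-4 experiment 1 sgKLF5 replicate 2, without which the count between KLF5 experiments was 14. The count in variant cells was 5 without T3M-4 dF109 DMSO replicate 1.

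Fitted with only the groups compared, empty-vector cells had 5 calls after CB6644 (9 in the fit of all groups) and variant cells 4 (9). Between KLF5 experiments, the replicate block gave 13 calls in place of 7, and leaving out both libraries with the widest length gap gave 14. With the replicate block, KLF5 knockout gave 39 calls and RUVBL1 or RUVBL2 knockout 40. The numbers were not shown to pair libraries: no contrast with 3 or more pairs had every correlation over 0.1. In BxPC-3 experiment 2 each sgKLF5 library correlated best with the sgRosa library of its own number, a hint from the data only. The DMSO libraries of AsPC-1 and T3M-4 carry no number, so no block could be fitted there. Under median-of-ratios scaling, the share of higher calls went from 22.2% to 7.69% in empty-vector cells and from 80% to 50% after CDK1 or RPA3 knockout.

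With the length trend removed, the sign turned for DSP after sgRUVBL1 in AsPC-1 experiment 3 (-0.22 against sgRosa and -0.13 against sgKLF5) and T3M-4 (-0.36), and after CB6644 for DSG2 in AsPC-1 EV (-0.14), DSG3 (-0.093), DSC2 (-0.16) and PKP3 (-0.25) in T3M-4 A62T, DSG3 (-0.12) and DSC2 (-0.10) in T3M-4 dF109 and PKP2 (-0.038) and PERP (-0.16) in H1048 cells. With median-of-ratios scaling it turned after CB6644 for DSG2 (-0.21) and DSP (-0.14) in AsPC-1 EV, DSG3 (-0.075) and PKP3 (-0.35) in T3M-4 A62T, DSG3 (-0.11) in T3M-4 dF109, JUP (-0.018) and PERP (-0.027) in T84, DSG2 (-0.15) in A375, and DSG2 (-0.047), PKP2 (-0.066) and PERP (-0.19) in H1048 cells. With the DMSO library of the same construct alone it turned for DSG2 in T3M-4 EV (0.25). The causes were not tested.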
